A study of Bos taurus with 16 samples.

Results

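The miR-424, miR-503, miR-542 and miR-450 genes form a cluster of miRNA genes that lie next to each other on the X chromosome. Its members were taken by name from a table of 204 NanoString miRNA probes measured in bovine corpora lutea. They were the probes for miR-424-5p, miR-503-5p, miR-542-3p and miR-542-5p, and every probe whose name starts with miR-450, which added miR-450a-5p and miR-450b-5p. In all, 6 of 204 probes belonged to the cluster, by a rule on names alone.

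A miRNA gene is transcribed as part of a longer RNA that folds into a hairpin. The hairpin is cut to a short duplex, and either strand, the 5p arm or the 3p arm, can be loaded into an Argonaute protein and guide it to messenger RNAs. miRNAs encoded side by side are often cut from a shared transcript. miR-424 and miR-503 belong to the extended miR-15/16 family, whose shared seed pairs with messenger RNAs of cell cycle genes such as cyclins and CDC25A. In human cells, miR-542-3p is known to target the messenger RNA of survivin, an inhibitor of apoptosis. The corpus luteum is the transient endocrine gland of the ovary that secretes progesterone, and it is rich in capillaries.

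The probes carry human names, so the names were looked up among 1032 miRNA genes of the RefSeq cattle annotation (ARS-UCD2.0). For all 6 members a cattle gene with that name was found. The cattle genes follow each other on chromosome X in the order MIR450B, MIR450A-1, MIR450A-2, MIR542, MIR503 and MIR424, with HPRT1 and PLAC1 as the protein-coding genes on either side. MIR542 overlaps a further miRNA gene, MIR3601, which had no probe among the 204. The miR-450a-5p probe stands for 2 gene copies, whose products it may not tell apart.

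The samples were corpora lutea of pregnant cattle collected 14, 17, 20 and 23 days after breeding, with 4 samples on each day. All of the cattle were bred naturally at oestrus and again by artificial insemination. The labels give no age or breed, and the replicates are taken to be separate animals because the design text counts 4 pregnant cattle a day. The samples were counted in 2 NanoString runs. Replicates 3 and 4 of each day were in run 2 and replicates 1 and 2 in run 1, so that each run held 2 samples of every day and run could be held in each comparison of days.

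Sample totals over the 204 probes were 373847 to 536516 normalized counts in run 2 and 175197 to 331164 in run 1. The 38 probes with no bovine miRNA of their name or number gave a rough level of background: their median was 40.4 to 88.8 normalized counts in the run 2 samples and 124 to 258 in the run 1 samples. All 3 gonadotropin-responsive luteal miRNAs on the marker list (miR-21-5p, miR-132-3p and miR-212-3p) had a probe, with a summed level of 1588 to 8690 normalized counts. Over all samples miR-21-5p averaged 3498 normalized counts, miR-132-3p 566 and miR-212-3p 35.3, the last of which is below every background median given above. All 204 probes, also the 38 without a bovine gene, passed the filter on level. Having a measured value is therefore no check of the labelled tissue. No probe among the 204 is specific to luteal cells. The samples hold all cell types of the gland, so fewer cells of a type and less RNA per cell cannot be told apart.

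Levels of the cluster lay in 3 tiers. miR-503-5p averaged 2391 ± 2007 normalized counts over all samples (SD, n = 16), miR-450a-5p 1806 ± 1054 and miR-424-5p 1363 ± 1085, which put them at places 26, 30 and 35 of the 204 probes by mean. The arms of miR-542 were lower, with 337 ± 133 normalized counts for miR-542-5p and 225 ± 144 for miR-542-3p, at places 85 and 99. miR-450b-5p was the lowest member, with 75.9 ± 37.3 normalized counts, at place 155. Probes can differ in how well they capture their targets, so this is an order of probe counts. Mature miRNAs are of nearly equal length, and no correction for length was made.

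The order among neighbours was partly within their spread. miR-503-5p exceeded miR-450a-5p in 11 of 16 samples, with a mean log2 difference of 0.28 ± 0.60 (SD, n = 16), which is less than its spread. miR-450a-5p exceeded miR-424-5p in 15 of 16 samples, by 0.56 ± 0.40 on the log2 scale. miR-424-5p lay above miR-542-5p in 16 of 16 samples, and miR-542-3p lay above miR-450b-5p in 16 of 16. Between the arms of miR-542 the order was not fixed: miR-542-5p was the higher arm in 12 of 16 samples. miR-424-5p, miR-450a-5p, miR-503-5p and miR-542-5p exceeded the median of the probes without a bovine gene in 16 of 16 samples. The narrowest margin of miR-542-5p was 0.16 on the log2 scale, in day 14 replicate 1 (289 against 258 normalized counts). miR-542-3p exceeded that median in 8 of 8 run 2 samples and 2 of 8 run 1 samples, and miR-450b-5p in 6 of 8 run 2 samples and 0 of 8 run 1 samples. The run 1 values of miR-450b-5p and most of those of miR-542-3p were therefore not distinguishable from background by this measure. The measure is a strict one in run 1. The median of the probes with a bovine gene was only 177 to 248 normalized counts there, against 300 to 419 in run 2. In day 14 replicate 1 it lay below the background median (177 against 258). The share of all probes above the background median was not counted.

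miR-424-5p, a member of the extended miR-15/16 family that in rodents is called miR-322, differed between the runs in every sample. In run 2 it had 2034 and 3817 normalized counts on day 14, 1023 and 3886 on day 17, 875 and 2154 on day 20, and 1302 and 1212 on day 23. The run 1 samples had 507 and 785 on day 14, 873 and 436 on day 17, 677 and 726 on day 20, and 805 and 695 on day 23. Every run 2 sample lay above every run 1 sample, the closest pair being 875 against 873. Within run 2 the day 14 samples lay above both day 23 samples, within run 1 the days overlapped, and the 4 days overlapped when the runs were pooled.

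miR-503-5p, the neighbour of miR-424 in the genome and its partner in the same family, had the highest single value of the cluster. Its run 2 samples had 2512 and 9080 normalized counts on day 14, 1588 and 3073 on day 17, 1495 and 3733 on day 20, and 1401 and 3977 on day 23. Its run 1 samples had 1531 and 1798 on day 14, 1855 and 925 on day 17, 1191 and 986 on day 20, and 1793 and 1323 on day 23. Replicate 4 was the higher run 2 sample on every day, and the value of 9080 on day 14 stood far above the other 15. The 4 days overlapped in run 2, while in run 1 the day 20 samples lay below those of days 14 and 23.

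miR-450a-5p, the product of the duplicated MIR450A genes, followed miR-503-5p in mean level. Run 2 counts of miR-450a-5p were 2179 and 2945 on day 14, 1769 and 5080 on day 17, 1260 and 2544 on day 20, and 1902 and 1722 on day 23. Run 1 counts of miR-450a-5p were 1034 and 1412 on day 14, 1536 and 858 on day 17, 1298 and 859 on day 20, and 983 and 1513 on day 23. Both day 23 samples of run 2 lay below both day 14 samples, but the run 1 samples of those days overlapped.

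miR-450b-5p stayed low throughout. On day 14 it had 81.5 and 114 normalized counts in run 2 and 95.6 and 73.0 in run 1. On day 17 the counts were 61.7 and 191 in run 2 and 66.7 and 51.2 in run 1. On day 20 they were 63.5 and 94.9 in run 2 and 45.04 and 48.65 in run 1, and on day 23 they were 83.4 and 61.1 in run 2 and 44.3 and 38.5 in run 1. The 4 lowest values were the run 1 samples of days 20 and 23, in which 1 counting step was worth at most 1.37 normalized counts.

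miR-542-3p had the order of runs seen in miR-424-5p. Run 2 counts of miR-542-3p were 354 and 368 on day 14, 265 and 620 on day 17, 157 and 376 on day 20, and 243 and 218 on day 23. Run 1 counts of miR-542-3p were 131 and 155 on day 14, 173 and 102 on day 17, 91.2 and 93.9 on day 20, and 102 and 148 on day 23. Only the day 20 value of 157 in run 2 lay inside the range of run 1.

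miR-542-5p, the other arm of the same hairpin, had its lowest values on day 14 of run 2. Its counts in run 2 were 147 and 132 on day 14, 544 and 243 on day 17, 295 and 281 on day 20, and 329 and 285 on day 23. Its counts in run 1 were 289 and 322 on day 14, 210 and 399 on day 17, 360 and 582 on day 20, and 453 and 517 on day 23. In both runs each day 23 sample exceeded each day 14 sample. This separation was seen in 15 of 204 probes (7.35%), among them 1 of 6 members. The opposite separation, with each day 23 sample below each day 14 sample in both runs, was seen in 16 of 204 probes (7.84%) and in 0 of 6 members.

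**Figure D1:**
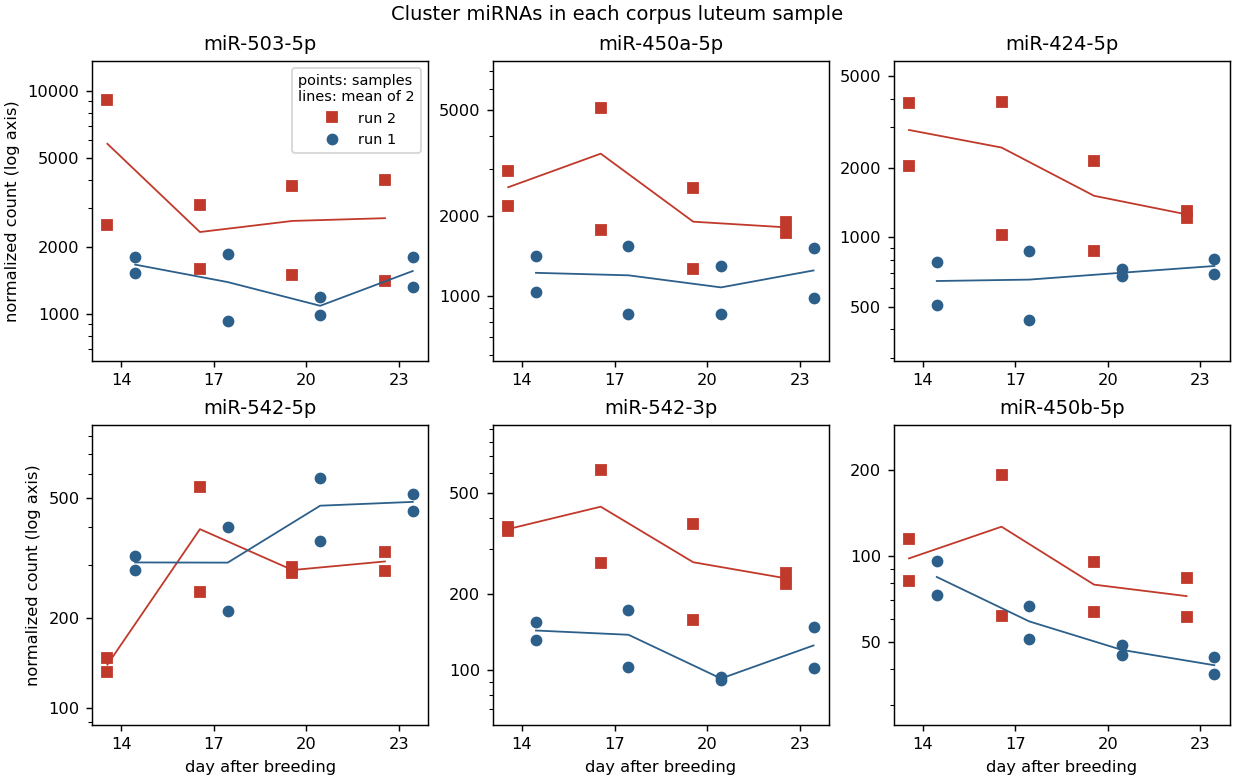
Normalized counts of the 6 members (log axis) against day after breeding, with 1 point for each sample, run 2 drawn left of run 1, and lines through the mean of the 2 samples of each run. The run 2 line lies above the run 1 line in 5 panels, and every sample does so for miR-424-5p (lowest run 2 sample 875, highest run 1 sample 873), and in the miR-542-5p panel run 2 lies below run 1 on days 14, 20 and 23 and above it on day 17.

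To ask whether the cluster changed as pregnancy advanced, log2(normalized count + 1) was fitted for all 204 probes with limma, with day and run as terms, and p-values were adjusted over the 204. No member passed an adjusted p of 0.05 in any of the 6 comparisons of days, in the test across the 4 days or for a slope on day. The cluster was not set apart by this, since few probes passed anywhere in the table. For day 23 against day 14, 0 of 6 members and 1 of 204 probes (0.49%) were called. At an unadjusted p under 0.05, 2 of 6 members and 43 of 204 probes passed.

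Between day 23 and day 14 the members did not point the same way. miR-542-5p averaged 396 ± 107 normalized counts on day 23 and 222 ± 96.7 on day 14 (SD, n = 4 each). The fitted log2 difference was 0.90 with an SE of 0.32 (limma adjusted p = 0.124). After background subtraction it was 1.85, and the call did not change. Both runs gave a value above 0, namely 1.13 from the run 2 samples and 0.67 from the run 1 samples. The other 5 members had differences below 0.

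miR-450b-5p averaged 56.8 ± 20.1 normalized counts on day 23 and 91.1 ± 18.1 on day 14, and the fitted log2 difference was -0.71 with an SE of 0.31 (limma adjusted p = 0.181). After background subtraction, which sets values under the background to the floor, it was -1.66 and was not called. The run 2 samples gave -0.43 and the run 1 samples -0.998. Fitted on the 8 samples of run 1 alone, it was the only member called (limma adjusted p = 0.0455), in a fit that called 40 of 204 probes (19.6%). In all of those samples it lay at or below the background measure given above.

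The remaining members gave smaller differences relative to their error. For miR-503-5p the log2 difference was -0.56 (SE 0.40, limma adjusted p = 0.469), with means of 2123 ± 1253 normalized counts on day 23 and 3730 ± 3590 on day 14. Without the day 14 sample of 9080 normalized counts (replicate 4) it was -0.13, and without day 23 replicate 3 -0.22. With quantile normalization of all samples it was -0.91 (limma adjusted p = 0.124). For miR-424-5p the difference was -0.45 (SE 0.40, limma adjusted p = 0.564), from -1.15 within run 2 and 0.25 within run 1. It was -0.15 without day 14 replicate 4 and -0.70 without day 14 replicate 1. miR-424-5p averaged 1004 ± 298 normalized counts on day 23 and 1786 ± 1509 on day 14. For miR-542-3p it was -0.43 (SE 0.31, limma adjusted p = 0.469), and for miR-450a-5p -0.24 (SE 0.33, limma adjusted p = 0.785). The miR-450a-5p value was -0.13 without day 14 replicate 4, -0.14 without day 23 replicate 4 and -0.42 without day 23 replicate 2. Over the 6 members the median difference was -0.44, against 0.00 over all 204 probes. That median rested in part on day 14 replicate 4, without which it was -0.14.

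The comparisons that involve the middle days gave no call either. Against day 14, day 20 had 0 of 6 members called, with 0 of 204 probes (0%) called in all and 13 at an unadjusted p under 0.05. In that comparison 5 members were below 0, from miR-503-5p at -0.81 to miR-450a-5p at -0.35, and miR-542-5p was at 0.81. miR-503-5p was at -0.38 without day 14 replicate 4 and at -1.03 with quantile normalization. miR-450a-5p was at -0.13 without day 20 replicate 3. Day 17 against day 14 had 3 members above 0 and 3 below, with miR-503-5p at -0.73 and miR-542-5p at 0.65, and 0 of 204 probes called (5 at an unadjusted p under 0.05, none of them a member). Day 20 against day 17, day 23 against day 17 and day 23 against day 20 each had 0 of 204 probes called, with 1, 24 and 10 at an unadjusted p under 0.05, none of them members. These comparisons share samples, so their values are not independent of each other.

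A slope over the 4 days uses all samples at once. Among all probes, 1 of 204 (0.49%) had a called slope, and 0 of 6 members did. At an unadjusted p under 0.05 there were 48 of 204 probes and 2 of 6 members, miR-542-5p and miR-450b-5p. miR-542-5p had a log2 slope of 0.095 per day (SE 0.033, limma adjusted p = 0.0917), the run 2 samples giving 0.102 and the run 1 samples 0.088. After background subtraction it was 0.197 and was not called. Without day 17 replicate 3 it was called, at 0.107 per day (limma adjusted p = 0.0457). miR-450b-5p had a log2 slope of -0.085 per day (SE 0.031, limma adjusted p = 0.0987), the run 2 samples giving -0.059 and the run 1 samples -0.110. The other 4 members had slopes between -0.064 and -0.038 per day (limma adjusted p = 0.226 to 0.548). For miR-424-5p the runs differed in sign, at -0.133 per day for run 2 against 0.031 for run 1. The test of day by run had 0 of 204 probes (0%) called and 0 of 6 members, with 20 probes and 0 members at an unadjusted p under 0.05. The test across the 4 days, which assumes no trend, had 0 of 204 probes (0%) called, with 17 probes and 1 member, miR-542-5p, at an unadjusted p under 0.05.

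The members' summed share of all normalized counts (mean ± SD of 4 samples) was 2.28 ± 0.59% at day 14, 1.80 ± 0.88% at day 17, 1.34 ± 0.34% at day 20 and 1.40 ± 0.17% at day 23. These shares are a description without a test. The day 23 samples, at 1.28% to 1.65%, lay below the day 14 samples, at 1.81% to 3.14%, and the samples of days 17 and 20 overlapped with both. The members' summed counts did overlap, at 4180 to 7476 on day 23 and 3588 to 16456 on day 14. In run 1 these sums were 3588 and 4543 on day 14 and 4180 and 4235 on day 23. The totals of the same run 1 samples were 175197 and 213338 on day 14 and 253542 and 331164 on day 23, so a lower share there went with higher totals. miR-424-5p and miR-503-5p together made up 47.7% to 78.4% of the cluster's counts.

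Markers of other cell types were read over the same days. Of 6 endothelial miRNAs on the marker list, 5 had a probe, and their summed level had a median of 17924 normalized counts on day 14 (range 9094 to 34293), 16410 on day 17 (11050 to 33659), 12839 on day 20 (10794 to 34036) and 12459 on day 23 (9105 to 19787). The slope was above 0 for 1 of these 5, with a median of -0.030 per day, and none was called. All 5 leukocyte miRNAs had a probe, with a median sum of 2479 normalized counts on day 14 (967 to 4129), 1787 on day 17 (876 to 2087), 1914 on day 20 (1416 to 3240) and 1349 on day 23 (1095 to 1882). Among these 5 the slope was above 0 for 2, with a median of -0.064 per day, and none was called. miR-342-3p averaged 50.7 and miR-223-3p 96.2 normalized counts, within the range of the background medians. The sums of both lists pool the 2 runs. Of the red cell list only miR-451a had a probe, also read with the runs pooled. Its median was 506 normalized counts on day 14 (206 to 1877), 308 on day 17 (116 to 937), 469 on day 20 (134 to 566) and 318 on day 23 (132 to 367). Its slope of -0.095 per day was not called. The part of these markers in the values of the cluster was not tested.

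The arms of miR-542 differed in how they ran over the days, so they were set against each other within each sample. The log2 ratio of miR-542-3p to miR-542-5p removes any factor that scales a whole sample. Its mean ± SD over 4 samples was 0.14 ± 1.42 at day 14, -0.48 ± 1.40 at day 17, -1.27 ± 1.33 at day 20 and -1.19 ± 0.91 at day 23. The 3p arm was the higher arm in 2 of 4 samples on day 14, 1 of 4 on day 17, 1 of 4 on day 20 and 0 of 4 on day 23.

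All 4 samples in which the 3p arm was higher were in run 2. In run 2 the 3p count divided by the 5p count was 2.40 and 2.78 on day 14, 0.486 and 2.55 on day 17, 0.533 and 1.34 on day 20, and 0.736 and 0.765 on day 23. In run 1 it was 0.456 and 0.482 on day 14, 0.824 and 0.257 on day 17, 0.253 and 0.161 on day 20, and 0.226 and 0.287 on day 23. Within each run, both day 23 samples had a lower ratio than both day 14 samples.

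With run held, the log2 ratio had a slope of -0.159 per day (SE 0.054). An exact two-sided permutation test, which counted all 6350400 arrangements of the day labels within runs, gave p = 0.0140, and 0.0140 after adjustment over the slope and run tests of this ratio. The slope was -0.191 in run 2 alone (exact permutation p = 0.0865) and -0.127 in run 1 alone (exact permutation p = 0.109). Leaving out each sample in turn gave slopes of -0.177 to -0.141. After the median of the probes without a bovine gene was subtracted from each sample, the slope was -0.206 with an exact permutation p of 0.208. In run 1, 6 of 8 samples had miR-542-3p at or below that median.

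The ratio also differed between runs. It averaged 0.22 ± 1.04 in run 2 and -1.62 ± 0.75 in run 1 (SD, n = 8 each), a difference of 1.83 on the log2 scale (exact permutation of run labels within days, two-sided p = 0.00309, adjusted p = 0.00617). The smallest p this design allows is 0.00154. The run difference therefore exceeded the mean difference between day 23 and day 14 in size.

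**Figure D2:**
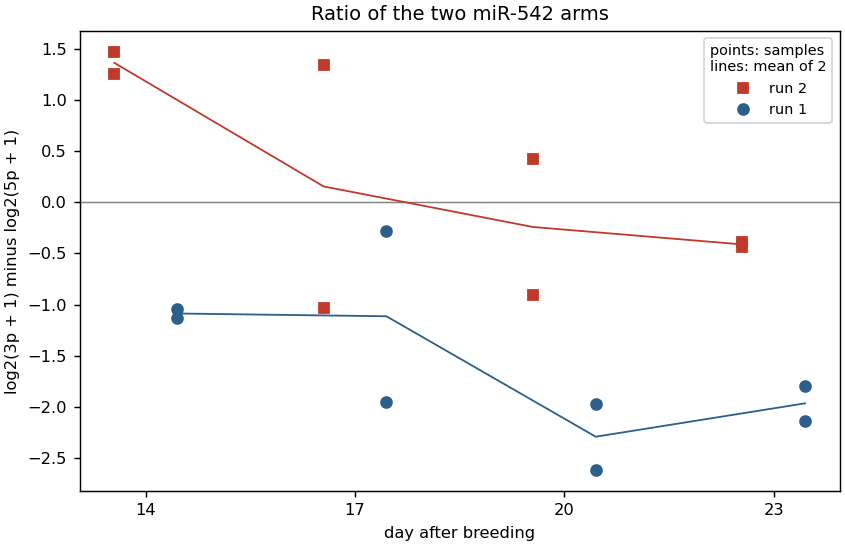
Log2 ratio of miR-542-3p to miR-542-5p in each sample against day after breeding, with run 2 drawn left of run 1 and lines through the mean of the 2 samples of each run. Both lines end lower on day 23 (-0.41 in run 2, -1.97 in run 1) than on day 14 (1.36 in run 2, -1.09 in run 1), and run 2 lies above run 1 on every day.

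The table held both arms of 13 hairpins, and the same ratio was fitted for each of them. This comparison was chosen after the miR-542 values had been seen. miR-542 had the steepest slope of the 13, followed by miR-30a at -0.089 per day, and the other 11 lay between -0.045 and 0.031. Adjusted over the 13 hairpins, the exact permutation p was 0.0913 for miR-542 and 0.0787 for miR-30a, so neither passed 0.05. miR-542 also had the largest run difference of the 13. Its adjusted exact permutation p of 0.0134 was shared by miR-125a at -1.39 and miR-30e at 0.84. The other 10 hairpins had adjusted values from 0.120 upward.

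**Figure D3:**
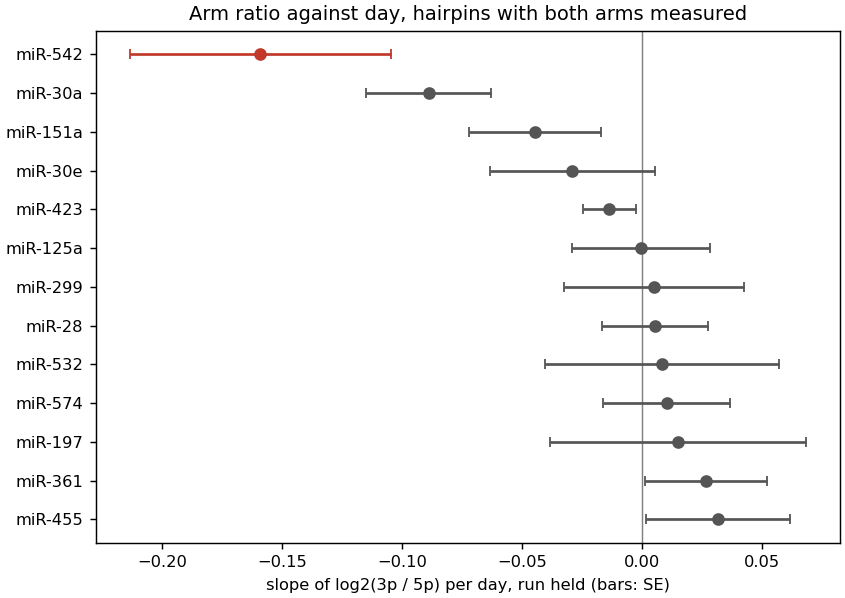
Slope per day of the log2 ratio of 3p to 5p for the 13 hairpins with both arms in the table, with run held; bars are 1 SE. miR-542, in red, lies farthest from 0, at -0.159 per day, and miR-30a is next at -0.089.

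The runs differed in the level of every member. In that comparison 170 of 204 probes (83.3%) were called with day held, 135 of them higher in run 2 (66.2% of the 204) and 35 lower (17.2%). All 6 members were called, 5 higher and 1 lower, a share that can be read only against this background. The median over all probes was 0.74 on the log2 scale, so values near it are no departure from the table as a whole.

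miR-424-5p averaged 2038 ± 1207 normalized counts in run 2 and 688 ± 149 in run 1 (SD, n = 8 each), a log2 difference of 1.39 (SE 0.28, limma adjusted p = 2.7e-04). miR-542-3p averaged 325 ± 142 in run 2 and 125 ± 31.5 in run 1, a difference of 1.30 (SE 0.22, limma adjusted p = 6.9e-05). These were the members farthest above the median of all probes.

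The next members lay closer to that median. miR-503-5p had a difference of 1.00 (SE 0.29, limma adjusted p = 0.00340), miR-450a-5p 0.95 (SE 0.23, limma adjusted p = 0.00118) and miR-450b-5p 0.65 (SE 0.22, limma adjusted p = 0.0110). With quantile normalization, which brought the median of all probes to 0.18, miR-424-5p, miR-450a-5p and miR-503-5p were no longer called. That setting called 94 of 204 probes, 57 higher and 37 lower in run 2.

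miR-542-5p was the member that was lower in run 2, with 282 ± 127 normalized counts in run 2 and 391 ± 122 in run 1. Its log2 difference was -0.53 (SE 0.23, limma adjusted p = 0.0368). Leaving out 1 sample at a time gave -0.71 to -0.45, and the call was lost in 12 of 16 such fits (limma adjusted p up to 0.0857). The 4 fits that kept it left out replicate 1 or 3 of day 17, replicate 1 of day 20, and replicate 3 of day 23. After the median of the probes without a bovine gene was subtracted, the difference was 0.15 (limma adjusted p = 0.761). Other scalings made it larger and kept the call. It was -0.81 after median centring (limma adjusted p = 0.00594) and -1.02 after quantile normalization (limma adjusted p = 0.00210). Of the 35 probes called lower in run 2, 24 were probes without a bovine gene, against 4 of the 135 called higher.

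**Figure D4:**
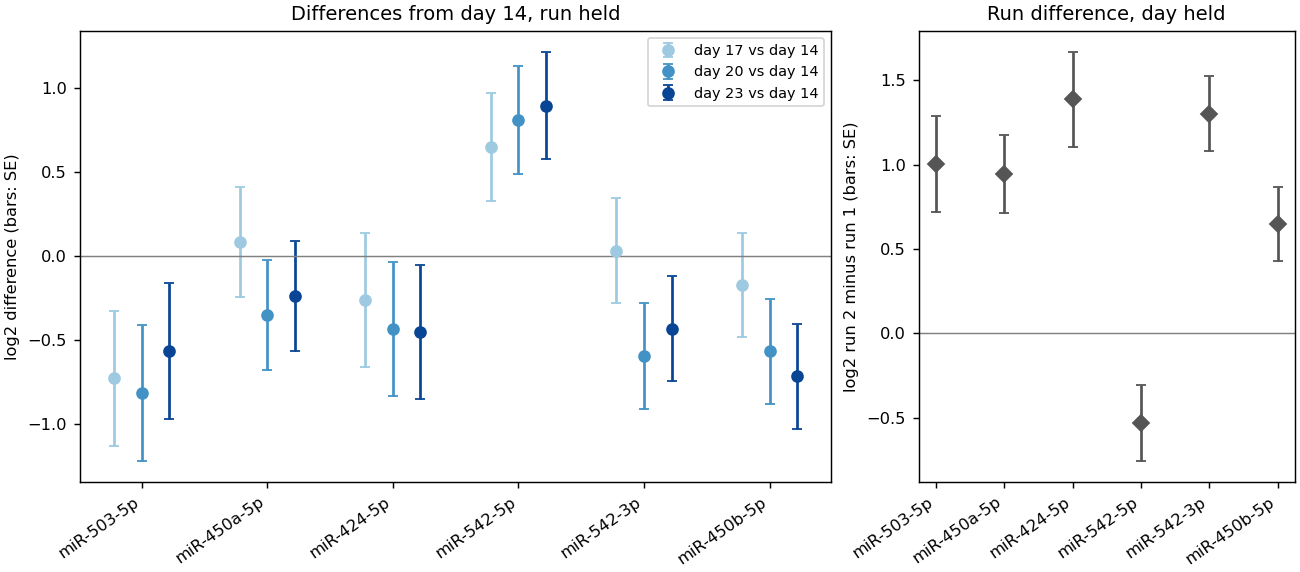
Fitted log2 differences of the 6 members with bars of 1 SE, for days 17, 20 and 23 minus day 14 with run held (left) and for run 2 minus run 1 with day held (right). For day 23, miR-542-5p lies at 0.90, above the other members, which lie between -0.71 and -0.24. For the runs miR-542-5p lies at -0.53, below the others, which lie between 0.65 and 1.39.

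Members of the cluster were compared with each other across samples, separately in each run because the runs form separate groups of levels. Log2 values were centred on each sample's median over all probes, and all 15 pairs in both runs made 30 relations. Leaving out miR-542-5p, 10 of 10 pairs in run 2 had a Pearson r above 0, from 0.18 to 0.95 with a median of 0.83. In run 1, 9 of 10 such pairs were above 0, from -0.06 to 0.75 with a median of 0.53. The tightest pair was miR-450a-5p with miR-542-3p in run 2, at r = 0.95 over 8 samples, and 0.82 without the 2 samples farthest from the median of miR-450a-5p. In run 1 the same check gave each pair without miR-542-5p a lower r. These ran from -0.44 (miR-424-5p with miR-450b-5p) to 0.58 (miR-503-5p with miR-542-3p), and miR-424-5p with miR-450a-5p went from 0.52 to -0.07.

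After adjustment over the 30 relations, 5 pairs had an exact permutation p under 0.05, all of them in run 2. They were miR-424-5p with miR-450a-5p, miR-450b-5p and miR-542-3p, and miR-450a-5p with miR-450b-5p and miR-542-3p. With Spearman's rho, 1 pair passed, miR-424-5p with miR-450a-5p in run 2. miR-503-5p was in none of these pairs. Whether the correlations differ between runs was not tested, and within a run the 8 samples share a day in pairs. Pairs of probes outside the cluster were not counted in this way. Neither the 5 pairs nor the pairs with r above 0 therefore set the cluster apart from the rest of the table.

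The pairs that include miR-542-5p all had r below 0, between -0.81 and -0.44 in run 2, and between -0.73 and -0.28 in run 1. None of these 10 relations passed the adjustment, and 2 in each run had an unadjusted exact permutation p under 0.05. The arms of miR-542, which are cut from the same hairpin, had an r of -0.46 in run 2 and -0.72 in run 1.

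**Figure D5:**
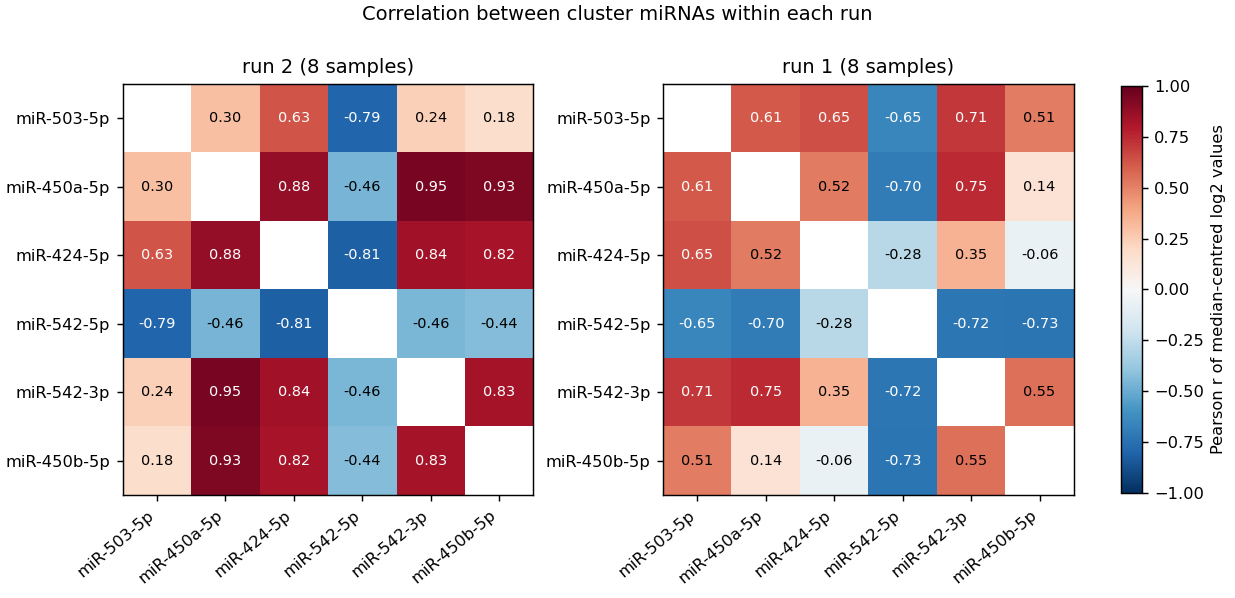
Pearson r between members across the 8 samples of run 2 and of run 1, on log2 values centred on each sample's median. Pairs without miR-542-5p lie mostly above 0 (medians 0.83 in run 2 and 0.53 in run 1), and the pairs with miR-542-5p lie below 0 in both runs.

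Outside the cluster, the probes whose pattern over 16 samples was most like each member were listed by Pearson r of the same centred values with run means removed. The samples share days and runs, and these values are a description. miR-424-5p was most like miR-30e-3p (0.88), miR-374a-5p (0.83) and miR-301a-3p (0.82). miR-450a-5p was most like miR-29b-3p (0.93), miR-374a-5p (0.89) and miR-148a-3p (0.83). miR-542-3p was most like miR-374a-5p (0.85), miR-19b-3p (0.84) and miR-29b-3p (0.81), all below its r of 0.88 with miR-450a-5p, its closest probe in the whole table. miR-374a-5p was thus near the top for 3 members.

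The low member miR-450b-5p was most like miR-19a-3p (0.85), miR-19b-3p (0.81) and miR-374b-5p (0.74). For miR-503-5p the closest were miR-183-5p (0.67), miR-28-5p (0.64) and miR-454-3p (0.60), the weakest top values among the 6 members. For miR-542-5p they were miR-197-5p (0.70), the shared probe for miR-193a-5p and miR-193b-5p (0.68) and miR-92a-3p (0.66). Among the 203 other probes, the other members ranked 178 to 201 in likeness to miR-542-5p. The closest member stood at place 6 for miR-424-5p, 3 for miR-450a-5p, 7 for miR-450b-5p and 3 for miR-503-5p, so probes outside the cluster came first for each. Leaving out miR-542-5p, the farthest member for these stood at places 33, 41, 40 and 34.

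miR-424 and miR-503 share much of their seed with miRNAs encoded outside the cluster, and 6 of the 9 on that list had a probe: miR-15a-5p, miR-15b-5p, miR-16-5p, miR-195-5p, miR-497-5p and miR-107. Their median log2 difference between day 23 and day 14 was 0.45, with 4 of 6 above 0, against the values of -0.45 for miR-424-5p and -0.56 for miR-503-5p. None of the 6 had a called slope. miR-497-5p had a log2 slope of 0.075 per day (limma adjusted p = 0.0830), and miR-15a-5p -0.076 (limma adjusted p = 0.140). Between runs all 6 were called higher in run 2, with a median difference of 0.88. The summed level of these 6 probes was 8712 to 14489 normalized counts on day 23 and 5754 to 17468 on day 14, so that the days overlapped.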

How the data were processed

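The deposited table gives 1 value for each of 204 miRNA probes in 16 samples, a signal that the authors called normalized counts. How the authors counted, filtered, background-corrected and normalized the signal, and which probe panel they used, is not given in the sources used here. Per the labels' protocols, total RNA with miRNA was extracted with a commercial kit. The values lay on steps worth 0.665 to 2.92 normalized counts with an unknown shift, so reads were not recovered and no counting interval is given.

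From there, log2(normalized count + 1) was modelled in R 4.3.3 by limma 3.58.1, using lmFit and a trended eBayes, on terms for the 4 days and for run (11 residual degrees of freedom). A slope on day and the day by run terms were fitted separately. All 204 probes passed the filter of at least 20 normalized counts in at least 4 samples. Benjamini-Hochberg adjustment of the p-values covered the 204 probes, and an adjusted p under 0.05 was called. The ratio of the miR-542 arms was tested by exact permutation within runs or days. The fit and the permutation test were tested on simulated data. Between samples that share a day and a run, the root mean square log2 difference was 0.475 to 0.871, and none counted as a duplicate. The members, marker lists and seed list were chosen with earlier results of these data known. Every member was named. Outside the cluster, the 3 probes most like each member and the probes of the seed list were named. Of the marker lists, no probe of the muscle and liver lists was among the 204, and the epithelial list had only miR-141-3p, at 37.1 to 87.3 normalized counts. The stromal list, with 5 of 6 probes, had 3 slopes above 0 and none called. RNA sequencing named in the design text was not analysed here. Alternatives covered the pseudocount, scaling, background, run, filter, variance model, replicate block and each sample left out.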

Additional observations from a re-analysis of the deposited data

Results flagged for a closer look

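Each member's normalized counts, not on the log2 scale, were checked on each day for a sample far from the other 3, by Dixon's ratio. The log2 ratio of the miR-542 arms was checked in the same way. Of 28 such groups of 4 samples, 4 had one. No rate expected by chance is given, because each group holds 2 samples of each run and the counts were not log-transformed. All 4 were highest values in replicate 4 samples, which were in run 2. miR-503-5p stood at 9080 normalized counts in day 14 replicate 4. miR-424-5p stood at 3886 in day 17 replicate 4 and at 2154 in day 20 replicate 4. miR-450b-5p stood at 191 in day 17 replicate 4. The part of run in these values was not tested. Without day 14 replicate 4, the log2 slope of miR-503-5p was -0.012 per day in place of -0.059. With quantile normalization of all samples that slope was -0.095.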

How the results depend on the processing

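No member was called for days in the full fit, and this held for all alternatives run but 2: miR-450b-5p with run 1 alone, which made 1 member called for day 23 against day 14 (-0.998), and miR-542-5p for the slope without day 17 replicate 3. Leaving out each sample in turn gave 0 to 1 members with a called slope. Members called between runs numbered 3 with quantile normalization and 5 to 6 when samples were left out, in place of 6. The slope of the arm ratio was -0.206 (exact permutation p = 0.208) after background subtraction, -0.191 (p = 0.0865) in run 2 alone and -0.127 (p = 0.109) in run 1 alone. Signs turned in run 1 alone for miR-424-5p (slope 0.031, day 23 against day 14 0.25, day 20 against day 14 0.15) and miR-450a-5p (day 23 against day 14 0.014). After background subtraction they turned for miR-542-3p (day 23 against day 14 0.54) and for miR-542-5p between runs (0.15). That setting puts values under the background at the floor. In run 1, miR-542-3p lay above the background in 2 of 8 samples, and on days 14 and 23 only in day 23 replicate 2. The cause of the turns was not tested. Background subtraction also moved miR-450b-5p to a slope of -0.168 and a run difference of 3.73, miR-542-3p to a slope of -0.0088 and a run difference of 6.63, and the day 20 against day 14 values of miR-450b-5p and miR-542-5p to -1.06 and 1.80. Of all 204 probes, 1 was called for day 23 against day 14, with 6 after median centring, 2 after quantile normalization, 0 after background subtraction or without the run term, 40 in run 1 alone, 0 in run 2 alone and up to 10 with a sample left out (day 23 replicate 3). Called slopes numbered 1, against 20, 9, 0, 0, 9, 0 and up to 11 (day 23 replicate 3) in the same settings. Run calls numbered 170, with 137 after median centring (70.8% higher), 94 after quantile normalization (60.6% higher) and 155 after background subtraction (91.6% higher), against 79.4% higher in the full fit. The median of all probes between runs was then 0.46, 0.18 and 1.30. In run 1 alone, 40 probes were called across the 4 days, 5 for day 17 and 31 for day 20 against day 14, 1 for day 20 against day 17 and 4 for day 23 against day 20, against 0 in the full fit for each. miR-450b-5p was not called between runs after median centring (0.37, limma adjusted p = 0.137).

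Same-numbered samples deviated together from their day means (r of 0.19 to 0.81 in 24 pairs), but with run also removed r was -0.60 to 0.57, 9 of 24 pairs were over 0.1, and 2 of 16 samples correlated best with a sample of their own number. The numbers follow the run and were not taken as pairs. With the replicate block, 0 members were called for any day comparison or slope. Without day 20 replicate 3, day 20 against day 14 was -0.12 for miR-424-5p and -0.38 for miR-542-3p. Without day 14 replicate 4, the slope of miR-424-5p was -0.022 and its day 20 against day 14 value -0.13. Precision was limited by 2 samples for each day and run, by the unknown normalization and by low levels: miR-450b-5p, and miR-542-3p in run 1, lay near the level of probes without a bovine gene. In the run 1 samples of day 14, miR-542-5p lay only 0.16 and 0.80 above that level on the log2 scale.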
